A study of Mus musculus with 24 samples.

Results

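The miR-101 family was measured in mouse hepatocytes sorted by their position between central vein and portal tract. Its 3 members on the array, mmu-miR-101a-3p, mmu-miR-101b-3p and mmu-miR-101c, were chosen by name from 1881 mouse miRNAs. All 3 were called detected on all 24 arrays, so none was lost to the filter on low values. The hepatocytes came from 3 untreated male C57BL/6J mice, 3 months old, fed ad libitum in a reversed light cycle. From each mouse 50000 viable tetraploid hepatocytes were sorted into each of 8 populations. CD45 and CD31, marks of leukocytes and endothelium, were gated out. The populations were defined by CD73, a pericentral surface protein, and E-cadherin, a periportal one, and are numbered from zone 1 (most pericentral) to zone 8 (most periportal). With 1 array per zone and mouse, n = 3 for every zone.

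A miRNA guides Argonaute to messenger RNAs that pair with its seed, the bases near its 5′ end, and lowers their output. miR-101 is an abundant miRNA of hepatocytes and is best known for acting on Ezh2, the methyltransferase of the Polycomb repressive complex. It is also known for being reduced in hepatocellular carcinoma.

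The mature sequences are shown first because the measurements turn on how alike they are. They are given 5′ to 3′ as RefSeq lists them on GRCm38.p6, with bases 2 to 8 in capitals.
miR-101a-3p: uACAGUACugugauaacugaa
miR-101b-3p: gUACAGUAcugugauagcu
miR-101c: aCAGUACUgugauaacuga
These are the listed sequences. Those of the array probes were not used here, so which listed form each probe was designed to was not tested. The listed miR-101c is identical to bases 2 to 20 of miR-101a-3p. The listed miR-101b-3p starts 1 base earlier than miR-101a-3p. Over the 18 bases they share it differs by A16G, counted from 1 at the 5′ end of miR-101a-3p, with the base of miR-101a-3p first. A run of 14 bases, acaguacugugaua, is common to all 3. Because the listed 5′ ends are staggered, the letters at bases 2 to 8 differ between the members, although ACAGUAC, the seed of miR-101a-3p, lies within each of them. None of the other mature miRNAs among the 1679 in the RefSeq table shares bases 2 to 8 with any member.

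The precursor hairpins show where the closely related arms come from, with the listed 3p arm in capitals.
Mir101a: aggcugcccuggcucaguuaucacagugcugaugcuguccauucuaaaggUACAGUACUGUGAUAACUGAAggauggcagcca
Mir101b: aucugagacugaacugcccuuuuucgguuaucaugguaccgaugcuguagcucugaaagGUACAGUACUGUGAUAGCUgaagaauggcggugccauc
Mir101a lies on the minus strand at chr4:101346945-101347027 (GRCm38.p6), inside the span of the long noncoding RNA E130102H24Rik. Its nearest protein-coding genes there are Jak1, which encodes a cytokine-receptor kinase, at 81663 bp, and Ak4, which encodes an adenylate kinase, at 69451 bp. Mir101b lies on the plus strand at chr19:29135279-29135375, inside the span of Rcl1, with Ak3 at 87199 bp and Jak2 at 116428 bp. The table used gives gene spans only, so exon and intron were not told apart. Mir101c is placed at chr9:3038669-3038743 and overlaps no other gene of that table. The other arms of the precursors, miR-101a-5p and miR-101b-5p, had no detection call on any array. Neither had miR-144-3p, an erythroid miRNA that shares bases 2 to 7 with miR-101a-3p, or miR-582-5p, which shares them with miR-101b-3p.

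Between 248 and 368 of the 1881 miRNAs were detected per array, and the summed signal lay between 57935 and 138301 intensity units. The number of arrays limits the precision. The 4 hepatocyte markers (miR-122-5p, miR-122-3p, miR-192-5p and miR-194-5p) were detected on all 24 arrays. Their summed signal before scaling was 5702 to 14140 in zones 1 to 4 and 10721 to 20865 in zones 5 to 8, so differences in brightness between arrays are part of it. None of 6 leukocyte and Kupffer cell, 5 stellate cell and fibroblast or 4 erythroid markers was detected on any array. Of 2 endothelial markers miR-126a-3p was detected on 7 arrays of zones 1 to 4 and 9 of zones 5 to 8, with summed signals before scaling of 0 to 10.9 and 0 to 9.53. Of 5 cholangiocyte and epithelial markers miR-200b-3p was detected on 1 array. Each mouse had its own slide of 8 arrays, and the effects of mouse and slide cannot be told apart. On each slide zones 1 to 4 filled the first row and zones 5 to 8 the second, so a difference between these sets of zones cannot be told apart from a difference between rows. The 5 control sequences detected on all arrays differed between rows by -0.21 to 0.12 log2 units before scaling.

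miR-101a-3p and miR-101c were higher towards the portal tract, whereas miR-101b-3p was not. From zone 1 to zone 8 the fitted change, the slope on the zone number taken over the axis, was 0.68 ± 0.17 log2 units (SE) for miR-101a-3p and 0.93 ± 0.20 for miR-101c. These are 1.61-fold and 1.90-fold rises, with limma adjusted p of 0.00544 and 0.00131 over 339 tested miRNAs. The fitted change of miR-101b-3p was -0.32 ± 0.24, did not pass (limma adjusted p = 0.398), and had a 95% interval of -0.82 to 0.18. The within-array ratio of miR-101a-3p to miR-101b-3p was higher on every array of zones 5 to 8 than on any array of zones 1 to 4. Ratios did not overlap between these sets of zones for 2.91% of all pairs of miRNAs detected on all arrays. The sets also lie in different slide rows.

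In mouse 1 the scaled signal of miR-101a-3p in zones 1 to 8 was 70.4, 57.9, 53.5, 59.4, 79.8, 75.4, 82.6 and 72.0 intensity units. Mouse 2 had 36.8, 50.4, 56.2, 43.5, 69.0, 79.9, 85.6 and 87.9. In mouse 3 the values were 75.6, 68.5, 71.9, 71.2, 74.3, 80.3, 97.1 and 92.5. Zones 5 to 8 lay above most of zones 1 to 4, but 4 of the 12 arrays of zones 1 to 4, 3 of them from mouse 3, were above the lowest array of zones 5 to 8. This count takes the mice together, so their differences in level enter it. Inside mice 1 and 2 zones 5 to 8 all lay above zones 1 to 4, and in mouse 3 zone 1 (75.6) lay above zone 5 (74.3). How often other miRNAs separate inside a mouse was not counted. The lowest 2 of all 24 values were zones 1 and 4 of mouse 2. The error the files give for this miRNA was 7.12% to 8.59% of its signal on an array, which does not include the spread between mice.

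miR-101c had scaled signals of 35.3, 30.5, 27.9, 33.3, 42.0, 47.3, 48.8 and 39.3 in zones 1 to 8 of mouse 1. In mouse 2 they were 20.3, 22.7, 26.0, 20.3, 36.8, 47.3, 53.5 and 53.3, and in mouse 3 41.1, 36.3, 37.4, 36.8, 43.8, 46.9, 56.5 and 52.5. Its profile followed that of miR-101a-3p, and 2 of the 12 arrays of zones 1 to 4 exceeded the lowest array of zones 5 to 8. The given error was 7.69% to 10.2% of the signal.

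miR-101b-3p had scaled signals of 11.2, 7.18, 5.70, 6.05, 5.47, 5.17, 5.84 and 5.33 in zones 1 to 8 of mouse 1. In mouse 2 it had 5.17, 7.26, 6.63, 5.26, 6.19, 7.65, 8.07 and 8.16, and in mouse 3 11.9, 11.1, 11.5, 10.4, 7.18, 6.92, 9.0 and 8.05. Mice 1 and 3 were highest in zone 1, whereas mouse 2 was lowest there, and 11 of the 12 arrays of zones 1 to 4 were above the lowest array of zones 5 to 8. Its given error was larger, 10.6% to 21.8% of the signal. No ranking of the 3 miRNAs by amount is drawn from these signals, because each probe has its own response.

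**Figure D1:**
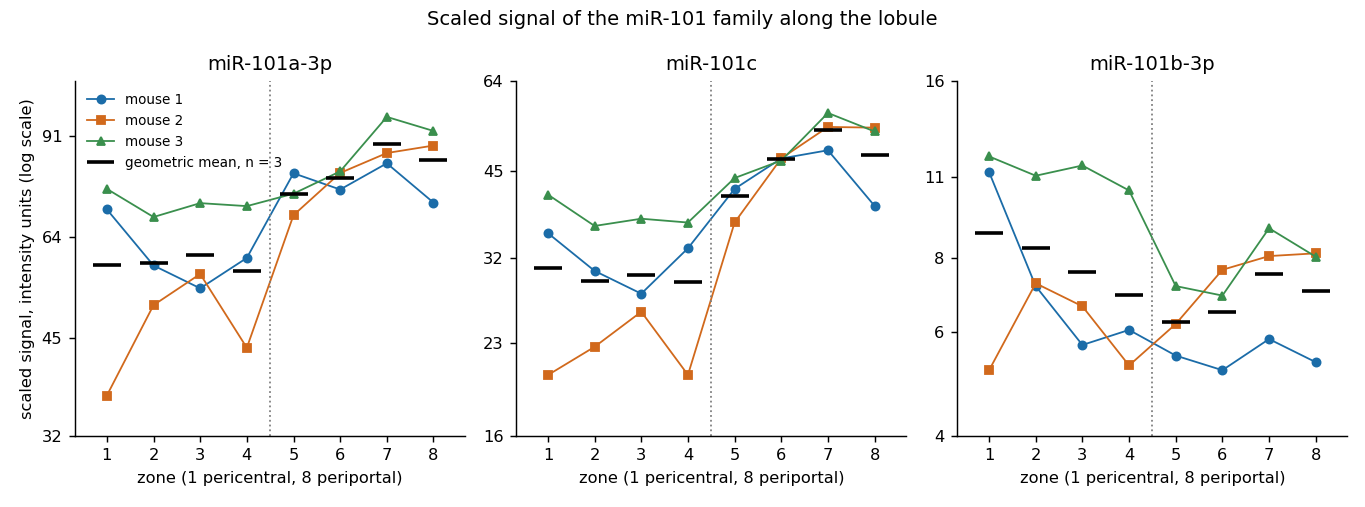
Scaled signal in intensity units (log scale) of miR-101a-3p, miR-101c and miR-101b-3p against the zone number, with 1 line per mouse and black bars for the geometric mean of the 3 mice. The dotted line marks the change of slide row. miR-101a-3p and miR-101c are higher in zones 5 to 8 in each mouse, while miR-101b-3p is lower there in mice 1 and 3 and higher in mouse 2.

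Ordered by mean log2 signal, miR-101a-3p was lowest in zones 4 (5.83 ± 0.36, SD, n = 3), 1 (5.86 ± 0.57), 2 (5.87 ± 0.22) and 3 (5.91 ± 0.23). It was higher in zones 5 (6.21 ± 0.11), 6 (6.29 ± 0.05), 8 (6.39 ± 0.19) and 7 (6.46 ± 0.12). Within each set of 4 zones, neighbours in this order differed by less than the larger of their SDs. The neighbours zone 3 and zone 5 differed by more than either SD. For miR-101c zones 1 to 4 had means from 4.87 ± 0.46 (zone 4) to 4.95 ± 0.54 (zone 1). Zones 5, 6, 8 and 7 followed at 5.35 ± 0.13, 5.56 ± 0.0069, 5.58 ± 0.25 and 5.72 ± 0.11, and here zones 5 and 6 were the neighbours that differed by more than either SD. miR-101b-3p was highest in zone 1 (3.14 ± 0.67) and lowest in zone 5 (2.64 ± 0.20), a difference smaller than the SD of zone 1.

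The mean of zones 5 to 8 exceeded that of zones 1 to 4 by 0.47 ± 0.12 log2 units (SE) for miR-101a-3p and by 0.66 ± 0.13 for miR-101c (limma adjusted p = 0.00776 and 0.00138). For miR-101b-3p the difference was -0.21 ± 0.17 (adjusted p = 0.492). As for the slope, these p-values do not cover the spread between mice. miR-101a-3p rose by 0.37, 0.80 and 0.25 in mice 1, 2 and 3 and miR-101c by 0.48, 1.09 and 0.39, so both were higher in 3 of 3 mice. miR-101b-3p differed by -0.41, 0.31 and -0.53. For miR-101a-3p this comparison did not pass without mouse 1 (difference 0.52, limma adjusted p = 0.0611, though the blocked fit without that mouse passed at 0.0307) or without scaling (0.58, adjusted p = 0.0846). Compared directly, zone 8 exceeded zone 1 by 0.53 ± 0.24 for miR-101a-3p and by 0.63 ± 0.26 for miR-101c, and neither passed (limma adjusted p = 0.261 and 0.201), against 4.72% of tested miRNAs higher and 0.59% lower. Without mouse 2 these differences were 0.26 and 0.35. The difference for miR-101b-3p was -0.33 ± 0.35 (adjusted p = 0.683), and without mouse 2 -0.73.

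Against the background of the array, 10.3% of the 339 tested miRNAs rose and 6.49% fell in the slope, and the same 10.3% were higher and 5.90% lower in zones 5 to 8. Thus 2 of 3 family members rose where about 1 in 10 miRNAs did, and over all tested miRNAs the fitted change had a median of -0.10. The 2 cannot be counted as separate observations. The listed miR-101c lies within miR-101a-3p, and whether the probe for 1 also reports the other was not tested. With mouse as a block, which ended or added no call of the members here, 14.5% rose and 16.5% fell in the slope, 13.3% were higher and 14.7% lower in zones 5 to 8, and zone 8 exceeded zone 1 for 7.67% and fell short of it for 2.06%. Scaled signals that did not overlap between zones 1 to 4 and zones 5 to 8 were found for 3.54% of the 198 miRNAs detected on all arrays, higher in zones 5 to 8, and none of the 3 members was among them. The split between rising and falling miRNAs moved with scaling, from 35 and 22 to 36 and 3 without scaling and 44 and 6 with the summed signal. The median fitted change moved to 0.10 and 0.04. Under these scalings the fitted changes were 0.91 and 0.85 for miR-101a-3p and 1.16 and 1.10 for miR-101c, which still passed, and -0.09 and -0.15 for miR-101b-3p. Of 19 miRNAs within 0.5 log2 units of the mean signal of miR-101a-3p, 2 were higher and 1 was lower in zones 5 to 8. Among 41 such miRNAs near miR-101b-3p 2 were higher and 2 lower, with a median difference of -0.12. Near miR-101c there were 25, of which 1 was higher and 2 lower, with a median difference of -0.087 and a largest of 1.10.

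**Figure D2:**
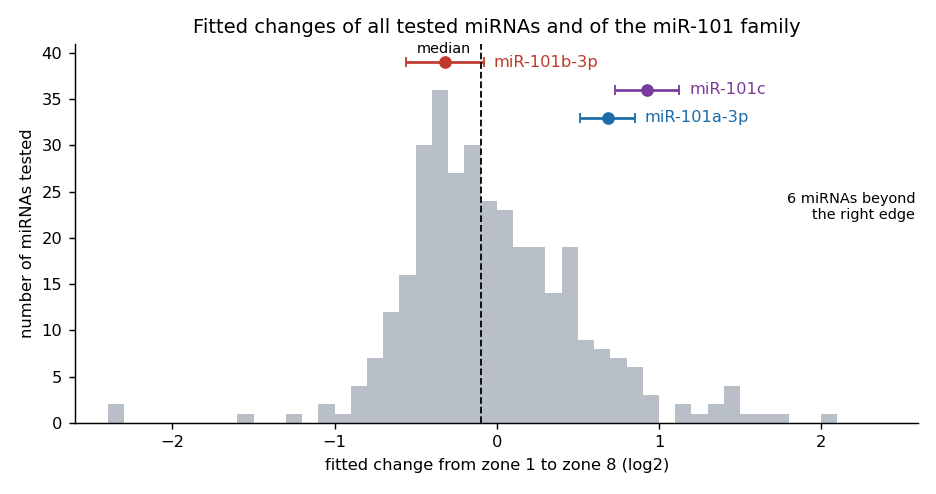
Histogram of the fitted change from zone 1 to zone 8 (log2) of all 339 tested miRNAs, with the 3 family members as points with SE bars placed above it. The dashed line is the median of all tested miRNAs, and 6 miRNAs lie beyond the right edge. miR-101a-3p (0.68) and miR-101c (0.93) lie in the right flank, and miR-101b-3p (-0.32) lies left of the median of -0.10.

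Inside zones 1 to 4 the slope per zone was -0.0053 ± 0.055 log2 units (SE, mouse as a block) for miR-101a-3p, -0.021 ± 0.061 for miR-101c and -0.12 ± 0.07 for miR-101b-3p. Inside zones 5 to 8 it was 0.07 ± 0.06, 0.09 ± 0.06 and 0.07 ± 0.07. None of these 6 slopes passed (limma adjusted p from 0.529 to 0.979), against 0.295% of tested miRNAs rising in zones 1 to 4 and 1.77% in zones 5 to 8. When slide row joined the mouse block in the fit, the fitted change was 0.22 ± 0.27 for miR-101a-3p and 0.23 ± 0.31 for miR-101c and no longer passed (limma adjusted p = 0.790 and 0.804). In that fit 0 of the 339 tested miRNAs rose and 0 fell, so the loss of the call is not particular to these members. The fitted changes of both were also smaller than the 0.68 and 0.93 of the fit without slide row. The moderated F test over the 8 zones called none of the members (limma adjusted p = 0.414 for miR-101a-3p, 0.118 for miR-101c and 1 for miR-101b-3p), against 5.31% of tested miRNAs. With mouse as a block miR-101c passed it (adjusted p = 0.0188), against 9.14%.

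The ratio of 2 members on the same array is not moved by a scaling factor per array, though quantile normalization can move it, and asks whether the members changed unequally. In mouse 1 the ratio of miR-101a-3p to miR-101b-3p in zones 1 to 8 was 6.28, 8.06, 9.37, 9.82, 14.6, 14.6, 14.2 and 13.5. It was 7.12, 6.95, 8.47, 8.26, 11.1, 10.4, 10.6 and 10.8 in mouse 2, and 6.34, 6.20, 6.25, 6.82, 10.4, 11.6, 10.8 and 11.5 in mouse 3. Every one of the 12 arrays of zones 1 to 4 was at or below 9.82 and every one of the 12 of zones 5 to 8 was at or above 10.4. Among the 19503 pairs of the 198 miRNAs detected on all arrays, 2.91% had ratios that did not overlap between these sets of zones.

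The ratio of miR-101a-3p to miR-101b-3p was 1.61-fold higher in zones 5 to 8, a log2 difference of 0.68 ± 0.17 (SD over 3 mice) that was positive in 3 of 3 mice. An exact permutation of zones within mice gave p = 5.83e-06, the smallest it can give, and 1.5e-05 after Benjamini-Hochberg adjustment over 6 ratio tests. Any pair whose ratios do not overlap between these sets of zones gives this same p, and 2.91% of all pairs did not overlap. The test was added after the values were seen, and the sets lie in different slide rows. As a slope the ratio changed by 1.00 ± 0.25 log2 units from zone 1 to zone 8 (SD over mice), with changes of 1.19, 0.71 and 1.11 in the 3 mice. That slope had a permutation p of 1e-05, the smallest that 100000 resamples can give, and adjusted p = 1.5e-05. These tests treat the zones of a mouse as exchangeable. With the 3 mice as the units, an exact sign-flip test cannot go below 0.25.

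Counting zones inside zones 1 to 4 and inside zones 5 to 8 only, which do not cross the slide rows, the slope of this ratio was 0.38 log2 units over the axis. Its two-sided permutation p was 0.0204, and 0.0612 after adjustment over the 3 ratios tested this way, so it did not pass. The ratio in zone 1 was 6.57 (geometric mean of 3 mice), in zone 4 8.21 and in zone 5 11.9, and it then stayed between 11.7 and 12.1 in zones 6 to 8. Mouse 1 climbed from 6.28 to 9.82 over zones 1 to 4, whereas mouse 3 ranged from 6.20 to 6.82.

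**Figure D3:**
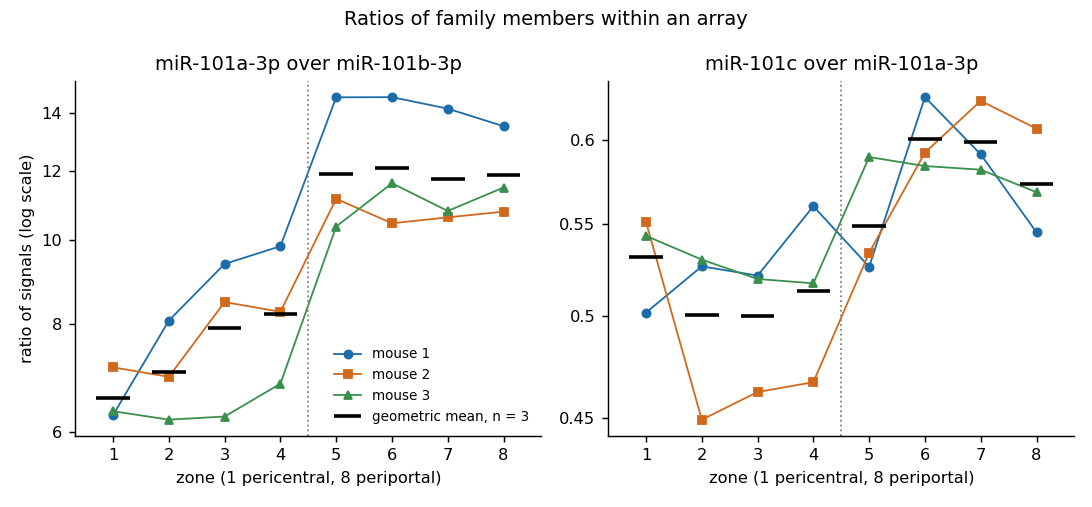
Ratios of deposited signals on the same array (log scale) against the zone number, for miR-101a-3p over miR-101b-3p and for miR-101c over miR-101a-3p, with 1 line per mouse and black bars for the geometric mean of the 3 mice. The dotted line marks the change of slide row. The first ratio is 9.82 or lower in zones 1 to 4 and 10.4 or higher in zones 5 to 8. The second ranges from 0.449 to 0.560 in zones 1 to 4 and from 0.526 to 0.627 in zones 5 to 8, with overlapping arrays.

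The ratio of miR-101c to miR-101a-3p changed less, although it also rose. It ranged from 0.449 to 0.560 in zones 1 to 4 and from 0.526 to 0.627 in zones 5 to 8, and these ranges overlap. It was 1.13-fold higher in zones 5 to 8, a log2 difference of 0.18 ± 0.10 (SD over 3 mice, exact permutation p = 0.000152, adjusted 0.000182). The differences in mice 1, 2 and 3 were 0.12, 0.29 and 0.14. The slope inside zones 1 to 4 and inside zones 5 to 8 was 0.0097 log2 units over the axis (permutation p = 0.936). For miR-101c over miR-101b-3p the difference was 0.87 ± 0.08, a 1.82-fold rise (exact permutation p = 5.83e-06, adjusted 1.5e-05). Its ratios were 3.12 to 5.50 in zones 1 to 4 and 5.95 to 9.15 in zones 5 to 8, which lie in different slide rows. Such ranges did not overlap for 2.91% of all pairs. Inside these sets of zones its slope was 0.39 log2 units over the axis (permutation p = 0.0676, adjusted 0.101). As miR-101c and miR-101a-3p cannot be counted as separate observations, neither can their ratios to miR-101b-3p.

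Over the 24 arrays, which share slides and mice, miR-101c and miR-101a-3p had a Pearson correlation of 0.972 in log2 signal. As shown above, the listed miR-101c is contained within miR-101a-3p, and whether the probe for 1 also reports the other was not tested. miR-101b-3p had correlations of 0.391 with miR-101a-3p and 0.292 with miR-101c, with rank 46 and rank 48 among the miRNAs detected on all arrays.

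**Figure D4:**
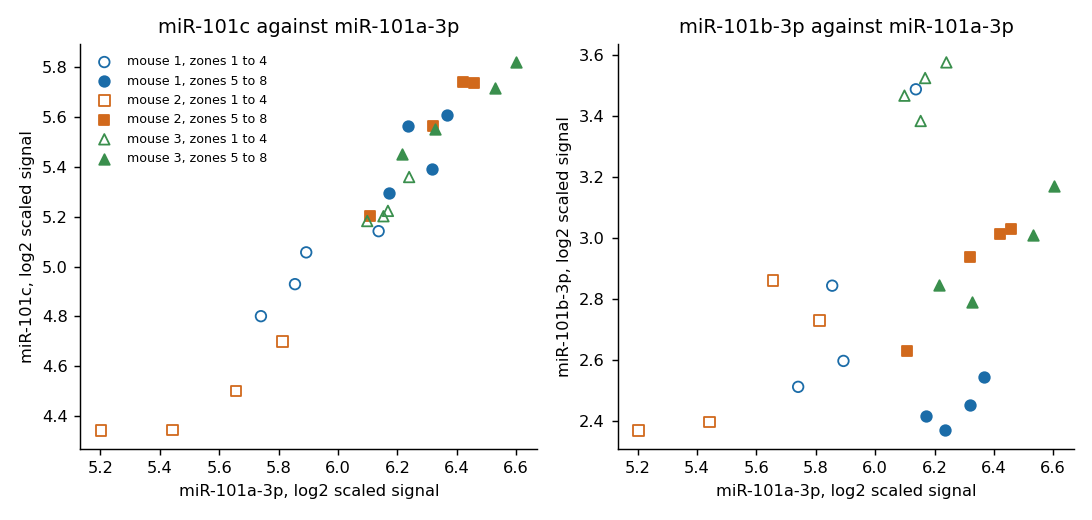
Log2 scaled signal of miR-101c (left) and miR-101b-3p (right) against that of miR-101a-3p, 1 point per array, with open symbols for zones 1 to 4, filled symbols for zones 5 to 8 and a symbol shape per mouse. The left points follow a line (r = 0.972), while the right points fall into zones 1 to 4 above and zones 5 to 8 below at a given miR-101a-3p signal.

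The profiles most like that of miR-101a-3p, by Pearson correlation over 24 arrays among 198 miRNAs, were miR-101c, miR-26a-5p (0.965), miR-148a-3p (0.928), miR-193a-3p (0.907) and miR-30b-5p (0.898). For miR-101c they were miR-101a-3p, miR-26a-5p (0.943), miR-221-3p (0.884), miR-148a-3p (0.883) and miR-99a-5p (0.873). For miR-101b-3p a different set came first, with miR-27b-3p (0.913), miR-15a-5p (0.865), miR-93-5p (0.828), miR-152-3p (0.809) and miR-16-5p (0.808). None of these 5 passed in the slope, with fitted changes from -0.33 (miR-16-5p) to -0.17 (miR-27b-3p). With mouse means removed miR-26a-5p (0.968) came before miR-101c (0.968) for miR-101a-3p, and miR-15a-5p (0.907) before miR-27b-3p (0.883) for miR-101b-3p.

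Of 6 other miRNAs known to act on Ezh2, miR-138-5p, miR-124-3p, miR-214-3p and miR-217-5p were not detected on any array. miR-26a-5p rose by 0.62 ± 0.13 (SE, limma adjusted p = 0.00131), and miR-26b-5p had a fitted change of 0.41 ± 0.18 (adjusted p = 0.121). Thus 1 of the 2 tested rose and 0 fell, where 10.3% of all tested miRNAs rose and 6.49% fell. No excess is drawn from 2 miRNAs, and miR-26a-5p is also 1 of the 11 in the next list. Of 11 other miRNAs abundant in hepatocytes 5 rose, 0 fell and 6 did not pass, where 10.3% of all tested miRNAs rose and 6.49% fell. With mouse as a block 6 of the 11 rose, where 14.5% of all tested did. The list had a median fitted change of 0.38 against -0.10 over all tested. Among them miR-30a-5p rose by 0.83 ± 0.11, miR-122-5p, the dominant hepatocyte miRNA, by 0.72 ± 0.13, and miR-21a-5p by 1.17 ± 0.24. Over all 11 the fitted changes ran from -0.17 (miR-27b-3p) to 1.17 (miR-21a-5p). Those of miR-101a-3p and miR-101c lay inside this range and above the median of the list, which was chosen with earlier results of these data known. miR-27b-3p, whose profile was most like that of miR-101b-3p, had -0.17 ± 0.16 and did not pass (adjusted p = 0.497).

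The mice differed in level. Each mouse is 1 animal on 1 slide, and the tests between mice use its 8 zones as repeats, so their p-values do not cover the spread between animals. Mouse 3 was higher than mouse 2 by 0.36 ± 0.12 log2 units (SE) for miR-101a-3p, 0.42 ± 0.13 for miR-101c and 0.47 ± 0.16 for miR-101b-3p (limma adjusted p = 0.0206, 0.0131 and 0.0258), against 20.4% of tested miRNAs higher and 18.9% lower. Mouse 3 was also higher than mouse 1 for miR-101b-3p, by 0.57 ± 0.16 (limma adjusted p = 0.0137), against 16.2% higher and 9.44% lower. Between mouse 2 and mouse 1 no member passed, against 24.5% of tested miRNAs higher and 15.6% lower in mouse 2. With the summed signal as the scale none of these 4 differences passed. The ratio of miR-101a-3p to miR-101b-3p, taken from unscaled signals, was lower in mouse 3 than in mouse 1 in 7 of 8 zones, by 0.37 ± 0.19 log2 units on average (SD over zones, exact permutation p = 0.0156, and 0.0527 adjusted over 9 comparisons). The slopes of the 3 mice did not differ past the threshold in the zone by mouse interaction (limma adjusted p = 0.139 for miR-101a-3p, 0.110 for miR-101c and 0.0753 for miR-101b-3p), against 0.885% of tested miRNAs. The fitted changes of miR-101b-3p in mice 1, 2 and 3 were -0.80, 0.52 and -0.68. Without mouse 2 and with mouse as a block miR-101b-3p fell by 0.66 log2 units (limma adjusted p = 0.00211), and without the block its adjusted p was 0.0564.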

How the data were processed

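The deposited files hold intensity values, the total gene signal per miRNA on a linear scale with its error and a detection call, per the file headers. The submitters' processing notes name Agilent Feature Extraction. Its version and settings are not given in the sources used here. Undetected miRNAs hold 0.1. RNA was labelled with Cy3, per the labels. The 21 control sequences were left out. To scale the arrays, the 75 percent quantile of the 198 miRNAs present on all 24 arrays was brought to its mean. A floor of 1.12 was then set before log2. The 339 miRNAs called detected on 6 or more arrays were fitted with limma 3.58.1 in R 4.3.3 (lmFit, eBayes, Benjamini-Hochberg, threshold 0.05), without a block unless stated. A miRNA is said to rise or fall where it passed. The fit was also run on simulated data with known slopes and mouse effects. These held no effect of slide row, and no result here rests on them. Alternatives changed the scaling, filter, floor, block and eBayes options or left out mice, zones or arrays. Replicates are separate mice. Arrays are paired by the mouse number in the labels, which is read as the animal. Deviations from zone means had a median correlation of 0.610 within mice (lowest 0.254). As each mouse has its own slide, this cannot tell a shared animal from a shared slide. Ratios used unscaled signals and permutations in numpy 2.4.6, two-sided. Members, lists and the rule for named miRNAs (members, other arms, shared seeds, the 5 most alike, up to 4 of a list) were chosen with earlier results of these data known. The test of zones 5 to 8 on ratios, the ratios of miR-101c, those between mice, the comparison with miRNAs of like signal, and the block without single mice were added after the values were seen.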

Additional observations from a re-analysis of the deposited data

How the results depend on the processing

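The rises of miR-101a-3p and miR-101c in the slope kept direction and call with mouse as a block, 3 other scalings, 2 other filters, a floor 4 times lower, trend and robust eBayes, and without any mouse, zone or array. Fitted changes without 1 array were 0.54 to 0.79 for miR-101a-3p and 0.82 to 1.06 for miR-101c. Slide row beside the mouse block ended both calls (0.22 and 0.23) and left 0 miRNAs rising and 0 falling, and row and zone cannot be told apart. The ratio of miR-101a-3p to miR-101b-3p kept its call without any mouse (slope 0.91 to 1.15, difference 0.63 to 0.78) or array, and without a replicate block (slope 1.00). Without scaling, the difference of miR-101a-3p between zones 5 to 8 and 1 to 4 was larger but did not pass (0.58 ± 0.20, SE), zone 8 against zone 1 of miR-101b-3p turned to 0.039, and miR-101a-3p and miR-101c passed in mouse 3 against mouse 1 (0.57 and 0.58). With the summed signal, mouse 2 against mouse 1 was -0.45 for miR-101a-3p and -0.49 for miR-101c, both passing, and -0.19 for miR-101b-3p. Mouse 3 against mouse 1 was then -0.23, -0.22 and 0.14 for miR-101a-3p, miR-101c and miR-101b-3p, and mouse 3 against mouse 2 0.22, 0.28 and 0.33, none passing. With quantile normalization miR-101b-3p had -0.013 in mouse 2 against mouse 1. The mouse block brought the F of miR-101c to 6.32 and past the threshold, and changed no other call of the members over zones. The causes were not tested.

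Without single mice, with or without the block, zone 8 against zone 1 of miR-101b-3p ran from -0.73 to 0.021, its slope from -0.66 to -0.09 and its difference between sets of zones from -0.43 to -0.05, passing without mouse 2 with the block. That difference for miR-101a-3p ran from 0.36 to 0.58. Slopes within zones 1 to 4 ran from -0.0068 to 0.059 for miR-101a-3p and -0.0092 to 0.013 for miR-101c. In the slope 35 rose and 22 fell, and 49 and 56 with the block, 0 and 0 with slide row, while 6, 12 and 13 fell without mouse 1, 2 and 3, and 22 rose without mouse 3. For zones 5 to 8, 35 were higher and 20 lower. There, 50 were lower with the block, 4 on unscaled signals and 8 after summed-signal scaling, and 5 and 8 without mouse 1 and 2. The higher count was 22 among miRNAs detected on all arrays and 23 without mouse 1 or 3. For zone 8 against zone 1, 16 were higher and 2 lower, 26 and 7 with the block, and 9 higher among miRNAs detected on all arrays. It had 10 higher without mouse 3, and 0 lower without mouse 1 or 3, on unscaled signals or after summed-signal scaling. The number of arrays limits the precision, and the interval of miR-101b-3p includes changes in both directions.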
